A study of Mus musculus with 6 samples.

Results

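Bone marrow cells of mice with MLL-AF9 (MA9) acute myeloid leukaemia were profiled by droplet 3′ single-cell RNA sequencing, and the library labelled MA9 Shp-1 Δ/Δ + chemo was set against the library labelled MA9 Shp-1 f/f + chemo. These are 2 of the 6 libraries of the series. In the library labelled Δ/Δ + chemo both copies of Shp-1 are given as deleted, and in the library labelled f/f + chemo both copies are given as floxed and undeleted. Both leukaemias carry the MLL-AF9 fusion, and both groups received Arac+Dox, that is cytarabine and doxorubicin. The libraries labelled MA9 Shp-1 Δ/Δ PBS and MA9 Shp-1 f/f PBS, of the same model and genotypes with PBS (buffered saline) in place of the drugs, are given for context. Per the labels' protocols the fusion gene was put into mouse embryonic stem cells by transfection, marrow was flushed from the leukaemic mice and red cells were lysed. The floxed exons, the Cre used, the drug doses and times, the age of the mice and the number of mice behind each library are not given in the sources used here. A barcode counted as a cell when it held 500 genes or more and when no more than 10% of its UMIs (unique molecular identifiers, each standing for 1 captured RNA molecule) were mitochondrial. This left 9446 cells in the library labelled Δ/Δ + chemo and 9750 in the library labelled f/f + chemo, 19196 of the 37241 kept cells of the 4 MA9 libraries. Kept cells fell into 3 classes. Camp-Ngp-high cells gave at least 3% of their UMIs to Camp and Ngp, Csf1r-positive cells were not of that class and held at least 1 Csf1r UMI, and the rest are called remaining cells. Camp, Ngp and Csf1r define the classes, so their own levels are no finding.

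Shp-1, encoded by Ptpn6, is a tyrosine phosphatase of blood cells. Inhibitory receptors recruit it, and it takes phosphate off kinases and adaptors in cytokine, integrin and Fc receptor signalling. MLL-AF9 holds granulocyte and monocyte progenitors in a dividing, immature state, from which some cells still mature along the neutrophil or the monocyte path. Camp (cathelicidin) and Ngp (neutrophilic granule protein) are stored in the secondary granules that neutrophils build as they leave the dividing stage, and Csf1r is the receptor for the growth factor of monocytes and macrophages. Stefins are small cytosolic inhibitors of cysteine proteases, and mouse neutrophil precursors express a cluster of them. Cytarabine stops DNA synthesis and doxorubicin traps topoisomerase II on DNA.

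There was 1 library a group, so no test between groups was possible, and nothing below can be set against a spread between replicates. Every interval is an exact 95% interval that covers counting error only. The library labelled Δ/Δ + chemo was the deeper, with 105272403 UMIs in 10748 barcodes and a median of 10112.5 UMIs per kept cell, against 82506203 UMIs in 10281 barcodes and a median of 7776 UMIs in the library labelled f/f + chemo. It also held more barcodes over the mitochondrial limit, 8.30% against 1.95%. The libraries shared 32 barcodes (0.311% of the smaller), of which 27 were kept in both and 9 fell in the same class.

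Ptpn6 was lower in the library labelled Δ/Δ + chemo in each class, by under 2-fold. In units of CPM (UMIs per 1e6 UMIs of the class), Ptpn6 was at 34.9 in Camp-Ngp-high cells of the library labelled Δ/Δ + chemo and at 60.7 in those of the library labelled f/f + chemo. In Csf1r-positive cells it was at 43.5 and 62.5 CPM in the same order, and in remaining cells at 44.0 and 52.4 CPM. The PBS libraries of the same model stood well above both: 162 to 200.2 CPM over the 3 classes with the Δ/Δ PBS label and 173 to 214 CPM with the f/f PBS label. The log2 ratios of the chemotherapy pair were -0.80 (-1.13 to -0.48), -0.52 (-0.64 to -0.40) and -0.25 (-0.34 to -0.17). In remaining cells the sign of this ratio turned round under some settings. Both chemotherapy libraries thus held Ptpn6 far below both PBS libraries in the 3 classes, with either genotype label. These levels single out no library as wrongly labelled, and whether the labels are right was not tested. T cell barcodes (at least 3 UMIs of Cd3d, Cd3e and Cd3g, over at least 2 of these genes) held Ptpn6 at 105 CPM in 185 cells of the library labelled Δ/Δ + chemo and at 52.3 CPM in 35 cells of the library labelled f/f + chemo. A 3′ tag outside the deleted exons says nothing about a deletion. Pfkp, the platelet-type phosphofructokinase of glycolysis, was at 29.6 against 24.1 CPM in Camp-Ngp-high cells, 77.0 against 57.0 CPM in Csf1r-positive cells and 59.4 against 41.6 CPM in remaining cells. Its log2 ratios were 0.29 (-0.08 to 0.65), 0.43 (0.33 to 0.54) and 0.51 (0.43 to 0.60), all under 2-fold.

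Camp-Ngp-high cells were scarce in the library labelled Δ/Δ + chemo. They made up 257 of 9446 kept cells, 2.72% (2.40% to 3.07%), against 3280 of 9750, 33.6% (32.7% to 34.6%), in the library labelled f/f + chemo. The PBS libraries stood the same way, with 2.41% under the Δ/Δ label against 36.9% under the f/f label. Csf1r-positive cells were 25.5% (24.6% to 26.4%) against 22.1% (21.3% to 22.9%), and remaining cells 71.8% (70.8% to 72.7%) against 44.3% (43.3% to 45.3%). The Csf1r share depends on depth. It was 11.1% against 13.4% among cells of at least 3000 UMIs, each thinned to 3000 UMIs and classed again. Shallower cells were left out of all thinned values, among them 1339 of 6778 and 971 of 4316 remaining cells. Before thinning, 60.8% against 50.6% of Csf1r-positive cells held exactly 1 Csf1r UMI. The Camp-Ngp-high share after thinning was 3.252% against 36.65%. Within that class the median cell gave 4.87% of its UMIs to Camp and Ngp in the library labelled Δ/Δ + chemo and 6.78% in the library labelled f/f + chemo. Near the limit, 70 against 440 cells lay at 3% to 4% and 105 against 630 at 2% to 3%.

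**Figure D1:**
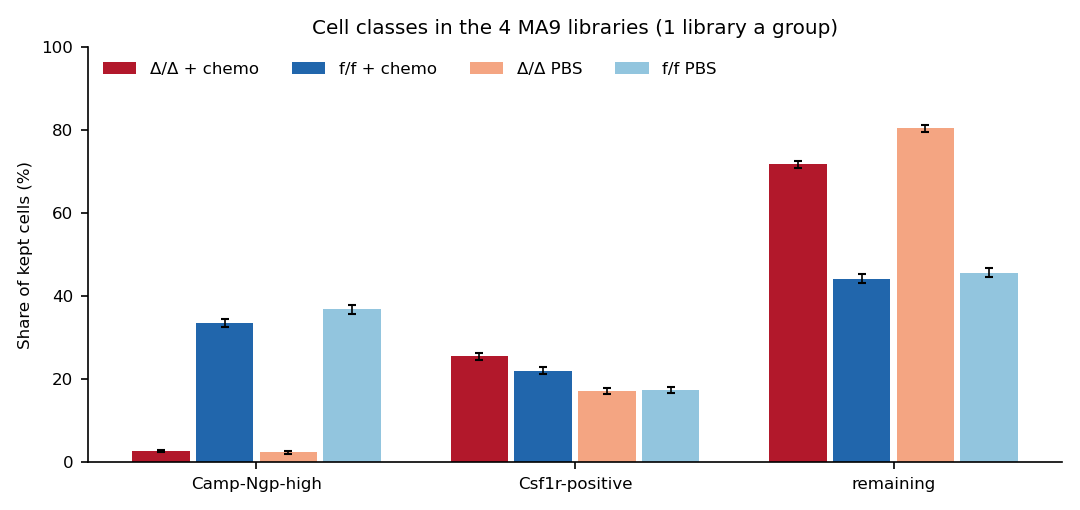
Share of kept cells (%, linear axis from 0) in each of the 3 classes, 1 bar for each MA9 library, with exact binomial 95% intervals that cover counting error only. Camp-Ngp-high cells made up 2.72% in the library labelled Δ/Δ + chemo and 33.6% in that labelled f/f + chemo, and the PBS libraries stood at 2.41% and 36.9%.

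The classes matched the names of their markers in part. Neutrophil markers summed to 203603 CPM in Camp-Ngp-high cells of the library labelled Δ/Δ + chemo and 153259 CPM in those of the library labelled f/f + chemo, with 12 and 11 of 12 markers at 20 CPM or more. Monocyte markers summed to 3254 and 3938 CPM in Csf1r-positive cells, with 11 of 12 at 20 CPM or more in each. Remaining cells carried all 6 granulocyte-monocyte progenitor markers, summing to 23536 and 19486 CPM. All 6 were at 20 CPM or more in the other classes too, at lower sums. These were 7190 and 5545 CPM in Camp-Ngp-high cells and 10990 and 9553 CPM in Csf1r-positive cells. Remaining cells are a mixture. Each was counted in 1 gate only, the first it met. The order was T or B cell UMIs, haemoglobin, Camp and Ngp, MHC class II and primary granule genes. Cells with 3 or more T or B cell UMIs made up 8.29% against 2.09% of the class, library labelled Δ/Δ + chemo first. Cells at 1% to 3% of Camp and Ngp then made up 3.79% against 23.9%, and cells with at least 1% of UMIs from MHC class II genes 3.81% against 0.417%. Of the class, 50% against 44.7% were left with at least 1% of UMIs from primary granule genes. Full shares at that level were not computed, so their order between the libraries is not known.

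Genes were compared within each class where they reached 20 CPM in either library, and called apart at 2-fold or more with an interval that excludes 0. This is a rule of size, not a test. In Camp-Ngp-high cells 130 of 5382 genes were higher in the library labelled Δ/Δ + chemo (2.42%) and 171 were lower (3.18%). In Csf1r-positive cells 257 of 6209 were higher (4.14%) and 253 lower (4.07%), and in remaining cells 230 of 6103 were higher (3.77%) and 285 lower (4.67%). The 2-fold counts of list members given below are to be read beside these shares. The median log2 ratio over all genes compared was -0.10, -0.03 and -0.06 in the 3 classes. Summed over all kept cells, 337 of 6073 genes were higher (5.55%) and 287 lower (4.73%). Of these, 64 of the higher and 40 of the lower genes were 2-fold apart in no class. A ratio of class sums does not tell apart more cells that hold a transcript from more transcript per cell.

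**Figure D2:**
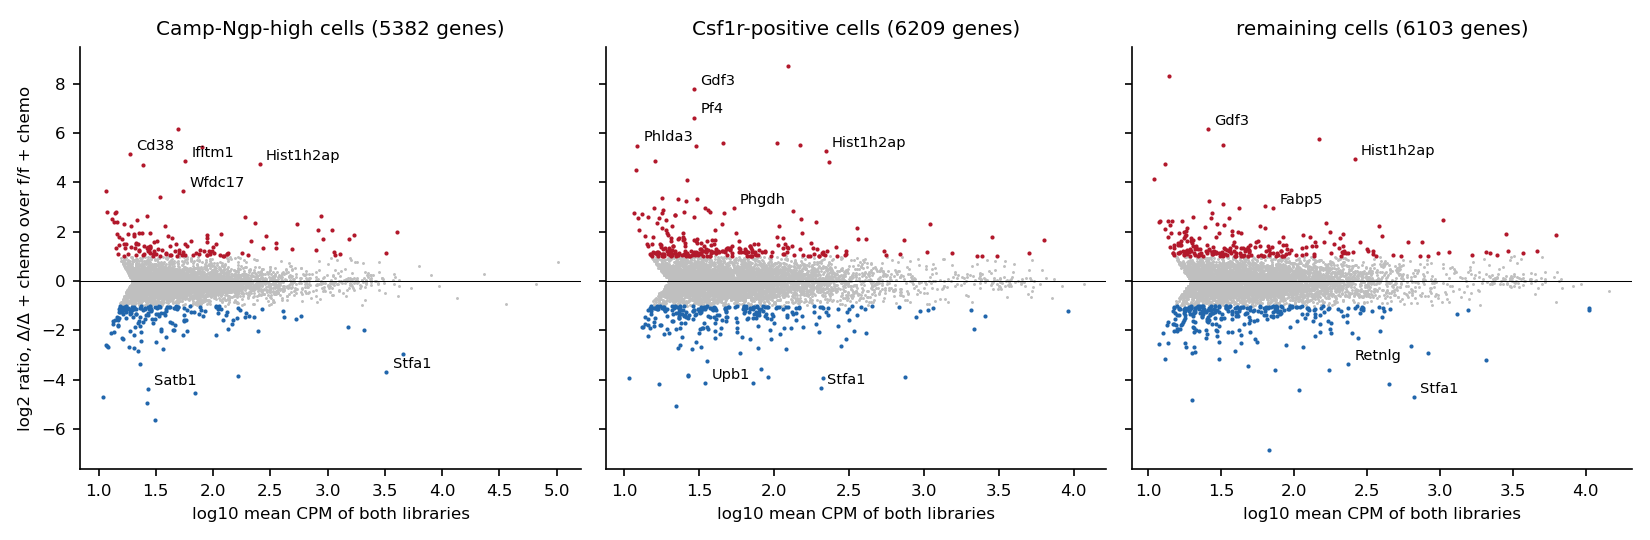
Log2 ratio of CPM (library labelled Δ/Δ + chemo over library labelled f/f + chemo) against the mean level of each gene (log10 of the mean CPM of both libraries), 1 panel per class and 1 point per gene at 20 CPM or more in either library. Red and blue points are at least 2-fold higher and lower, the line marks no difference, and labels name a few genes: Stfa1 lies low in each panel, at -3.70, -4.33 and -4.69, and Gdf3 high in the right panels, at 7.78 and 6.17.

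The stefin gene cluster was lower in the library labelled Δ/Δ + chemo in each class. Stfa1 was at 468 CPM in Camp-Ngp-high cells of the library labelled Δ/Δ + chemo and at 6074 CPM in those of the library labelled f/f + chemo, a log2 ratio of -3.70 (-3.78 to -3.61). In Csf1r-positive cells Stfa1 was at 19.4 against 391 CPM, a log2 ratio of -4.33, and in remaining cells at 49.3 against 1275 CPM, a log2 ratio of -4.69. BC100530, a stefin whose last 300 transcript bases are 98.7% identical to those of Stfa1, was at 1026 against 8035 CPM in Camp-Ngp-high cells, a log2 ratio of -2.97. The 2 genes can share reads, so their separate values are uncertain. Stfa3 had the lowest ratio of the stefins there, at 5.76 against 132 CPM (log2 ratio -4.52, -5.40 to -3.78). Gm5483 had a log2 ratio of -1.86, Stfa2l1 of -1.42 and Stfa2 of -1.28 in the same cells. In the PBS libraries Stfa1 in Camp-Ngp-high cells was at 5223 CPM in that labelled Δ/Δ and 5125 CPM in that labelled f/f, both near the library labelled f/f + chemo. The library labelled Δ/Δ + chemo was thus the only one of the 4 MA9 libraries with low Stfa1 in these cells. In remaining cells the PBS libraries differed as well, with Stfa1 at 262 CPM in that labelled Δ/Δ and 1066 CPM in that labelled f/f.

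Of the 8 stefin list members compared, 6 were at least 2-fold lower in Camp-Ngp-high cells and none higher, with a median log2 ratio of -1.64. In Csf1r-positive cells 5 of 7 were lower (median -3.93), and in remaining cells 6 of 8 (median -3.26). Cst3 and Cstb, which encode cystatin C and cystatin B, are the members under 2-fold in remaining cells. Cst3 was at 591 against 773 CPM there, and Cstb at 103 against 109 CPM. The share of cells with a Stfa1 UMI in Camp-Ngp-high cells, after thinning to 3000 UMIs, was 10.5% against 50.1% (14.0% against 59.4% before thinning). T cell barcodes, which should not express Stfa1, gave 1 of 95 against 4 of 20 cells after thinning, with median depths of 3113 and 3316 UMIs.

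The start regions of 4 stefins with a RefSeq entry (GRCm38.p6, 250 bases before to 50 after the start, 300 bases each) are shown because these genes stood apart together. Stfa1 lies at chr16:36276898-36277197 (plus strand), Stfa2 at chr16:36408314-36408613 (minus), Stfa2l1 at chr16:36156561-36156860 (plus) and Stfa3 at chr16:36455343-36455642 (minus). Capitals mark GAGGAA on either strand (TTCCTC on the printed one), a core of the site of the myeloid factor PU.1.
Stfa1: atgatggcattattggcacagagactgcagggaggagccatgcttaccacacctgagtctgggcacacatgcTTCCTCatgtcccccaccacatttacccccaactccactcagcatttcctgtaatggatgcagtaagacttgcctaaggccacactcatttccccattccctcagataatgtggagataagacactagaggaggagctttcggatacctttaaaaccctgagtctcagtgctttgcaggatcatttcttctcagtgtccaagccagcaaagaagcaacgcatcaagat
Stfa2: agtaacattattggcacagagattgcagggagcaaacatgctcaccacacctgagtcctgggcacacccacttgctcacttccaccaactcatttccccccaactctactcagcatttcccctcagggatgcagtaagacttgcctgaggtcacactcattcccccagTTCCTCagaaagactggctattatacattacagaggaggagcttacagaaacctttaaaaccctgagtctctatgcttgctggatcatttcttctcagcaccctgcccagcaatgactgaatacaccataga
Stfa2l1: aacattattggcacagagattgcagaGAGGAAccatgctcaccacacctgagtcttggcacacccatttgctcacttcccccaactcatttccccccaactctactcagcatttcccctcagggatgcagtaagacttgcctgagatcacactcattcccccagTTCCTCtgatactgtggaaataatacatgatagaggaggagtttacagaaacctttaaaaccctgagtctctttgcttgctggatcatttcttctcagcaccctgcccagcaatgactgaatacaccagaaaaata
Stfa3: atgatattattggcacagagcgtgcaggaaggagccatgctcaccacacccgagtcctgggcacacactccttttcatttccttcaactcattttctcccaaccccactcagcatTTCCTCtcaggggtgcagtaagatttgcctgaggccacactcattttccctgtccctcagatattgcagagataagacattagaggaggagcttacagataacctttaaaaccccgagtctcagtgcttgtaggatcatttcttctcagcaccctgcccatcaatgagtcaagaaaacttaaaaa
These windows are 78.8% to 81.0% identical in pairs, except for Stfa2 and Stfa2l1, which are 90.5% identical. GAGGAA occurred in each of the 4, with 2 matches in Stfa2l1, and in 28.3% of 32851 mouse promoter windows of the same length. CCAAT, the NFY motif, occurred once in each of the 4, and in 37.4% of all windows. TTNNGCAA, a C/EBP motif, occurred in Stfa1 alone of the 4, 109 bases before the start, and in 10.8% of all windows. The motifs were searched on both strands, and in these 4 windows no match of 1 motif overlaps a match of another. Csta1, a further member of the stefin list with an entry, is not printed. Its window held 2 matches of GAGGAA and none of CCAAT or TTNNGCAA. A match describes letters and is neither a site nor a cause.

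**Figure D3:**
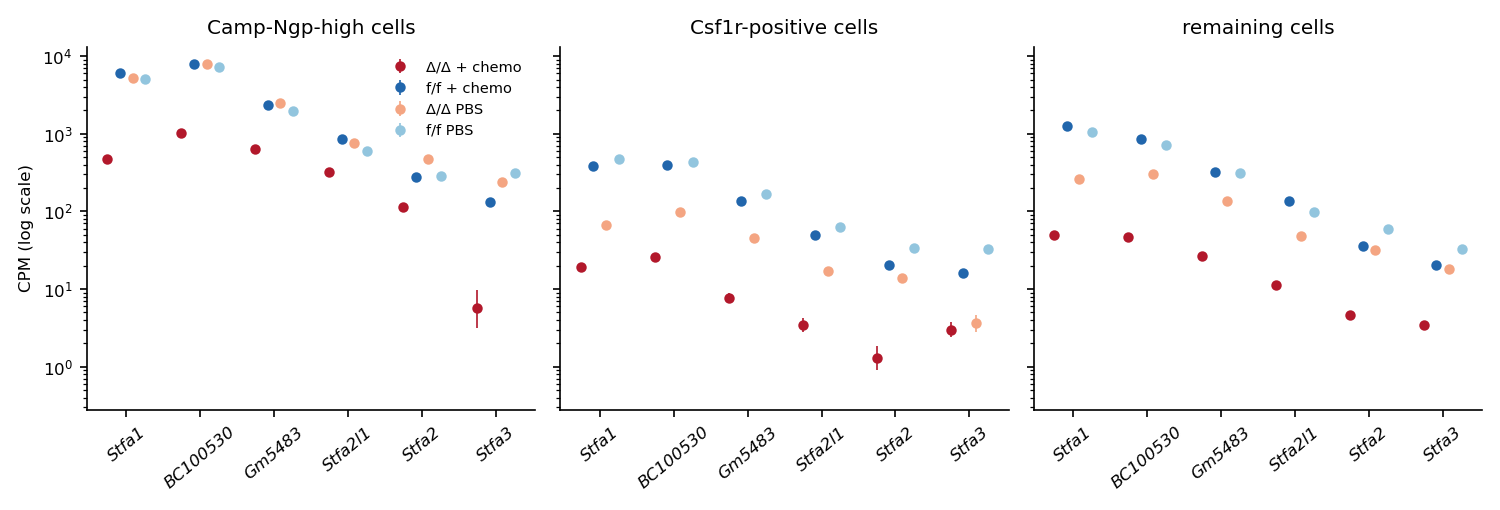
Level (CPM, log axis) of 6 stefin genes in the 3 classes, 1 point for each of the 4 MA9 libraries with its exact Poisson 95% interval (counting error only). In Camp-Ngp-high cells Stfa1 lies at 468 CPM in the library labelled Δ/Δ + chemo and between 5125 and 6074 CPM in the others.

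In Camp-Ngp-high cells most granule genes stood within 2-fold. Of 16 secondary granule genes compared beside Camp and Ngp, none was 2-fold higher and 2 were 2-fold lower, with a median log2 ratio of 0.05. Ltf (lactoferrin) was at 1290 against 1362 CPM, Olfm4 (olfactomedin 4) at 980 against 714 CPM and Chil3, a chitinase-like protein, at 3289 against 5023 CPM. The lower genes were Lyz2 (lysozyme), at 831 against 3321 CPM (log2 ratio -2.00), and the acute phase protein gene Orm1, at 27.1 against 84.3 CPM (-1.64). No primary granule gene of 10 was 2-fold apart (median 0.38). The list of later neutrophil genes was mixed, with 4 of 18 higher and 2 lower. The decoy interleukin 1 receptor Il1r2 was at 63.3 against 13.4 CPM (2.24), Wfdc21 at 2348 against 713 CPM (1.72) and Lrg1 at 526 against 182 CPM (1.53). Retnlg, a resistin-like protein of maturing neutrophils, was lower, at 123 against 336 CPM (-1.45, or -0.95 with the class set at 5% of UMIs). Of 8 S100 genes 1 was higher and 2 lower. S100a6 was at 1389 against 427 CPM (1.70), S100a10 at 7.81 against 21.4 CPM (-1.46) and S100a4 at 9.45 against 22.1 CPM (-1.23), while S100a9 was at 63224 against 68734 CPM, a log2 ratio of -0.12.

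Among the named genes, Cd38 and Ifitm1 had the highest ratios in Camp-Ngp-high cells, followed by Hist1h2ap (4.76) and Vill (4.70), which are described with the genes shared by all classes. Cd38, an NAD-consuming surface enzyme, was at 36.6 CPM in the library labelled Δ/Δ + chemo and at 1.03 CPM in the library labelled f/f + chemo, a log2 ratio of 5.15 (4.54 to 5.79). Ifitm1, a membrane protein that interferon induces, was at 110 against 3.72 CPM (4.88, 4.56 to 5.22). In the PBS libraries Ifitm1 was at 4.69 CPM in that labelled Δ/Δ and 1.51 CPM in that labelled f/f, so the library labelled Δ/Δ + chemo was the high one of 4. Wfdc17, a small secreted protein of myeloid cells, was at 101 against 8.06 CPM (3.64), Xlr4c at 20.6 against 2.93 CPM (2.81) and Trim30b at 24.7 against 3.55 CPM (2.80). Of 10 interferon-induced genes compared, 4 were 2-fold higher and none lower, with a median of 0.87. Ifitm3 was at 1504 against 240.3 CPM (2.65), Ifitm2 at 1343 against 324 CPM (2.05) and Trim30a at 37.8 against 9.78 CPM (1.95). Cd38 was seen in 9.27% against 0.320% of thinned cells (23.3% of cells before thinning in the library labelled Δ/Δ + chemo), and Ifitm1 in 15.3% against 0.799%. T cell barcodes gave 3 of 95 against 1 of 20 cells for Cd38 and 3 of 95 against 0 of 20 for Ifitm1 (which allows up to 16.8%), so the Cd38 and Ifitm1 shares of the library labelled f/f + chemo cannot be told from background.

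Of 17 JAK-STAT genes compared in the same cells, 4 were higher and none lower (median 0.34). Pim1, a kinase that STAT5 induces, was at 326 against 53.6 CPM (2.61). Jak3 was at 20.1 against 7.99 CPM (1.33), the interleukin 4 receptor gene Il4ra at 38.2 against 15.3 CPM (1.32) and Csf2rb, the shared chain of the GM-CSF, interleukin 3 and interleukin 5 receptors, at 129 against 55.7 CPM (1.21). In the PBS libraries Pim1 was at 191 CPM in that labelled Δ/Δ and 25.8 CPM in that labelled f/f, the same order. Of 11 p53 targets 4 were higher and none lower. The cell cycle brake Cdkn1a was at 76.5 against 37.0 CPM (1.05), Ccng1 at 70.3 against 24.7 CPM (1.51) and the cell death gene Bax at 154 against 74.7 CPM (1.04). The PBS libraries stood the same way for Ccng1, at 75.1 CPM in that labelled Δ/Δ and 26.0 CPM in that labelled f/f. None of 30 S phase or 30 mitosis genes was 2-fold apart in either direction in Camp-Ngp-high cells.

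Lower genes of Camp-Ngp-high cells, beside the stefins, included several regulators. Satb1, a chromatin organiser, was at 2.47 against 51.4 CPM, a log2 ratio of -4.38 (-5.83 to -3.26). Satb1 was at 6.40 and 15.9 CPM in the PBS libraries labelled Δ/Δ and f/f, so the library labelled f/f + chemo was the high one. The monocyte and dendritic cell factor Irf8 was at 3.29 against 20.1 CPM (-2.61, from 8 UMIs in the library labelled Δ/Δ + chemo). Without the 204 Camp-Ngp-high cells that Scrublet called doublets, all in the library labelled f/f + chemo, the log2 ratio of Irf8 was -0.89. Frat2, a Wnt pathway protein, was at 9.87 against 54.2 CPM (-2.46) and the lectin receptor gene Clec4b2 at 13.2 against 64.1 CPM (-2.29). Of the stress genes, 3 of 20 immediate early and heat shock genes were lower and none higher (median -0.59), among them Dusp2 at 9.04 against 38.3 CPM (-2.08), Fos at 113 against 298 CPM (-1.40) and Dusp1 at 78.5 against 186 CPM (-1.24). Of 20 myeloid transcription factors 3 were lower and none higher (median -0.52), among them Klf2 at 222 against 617 CPM (-1.48) and Zeb2 at 47.7 against 109 CPM (-1.19).

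**Figure D4:**
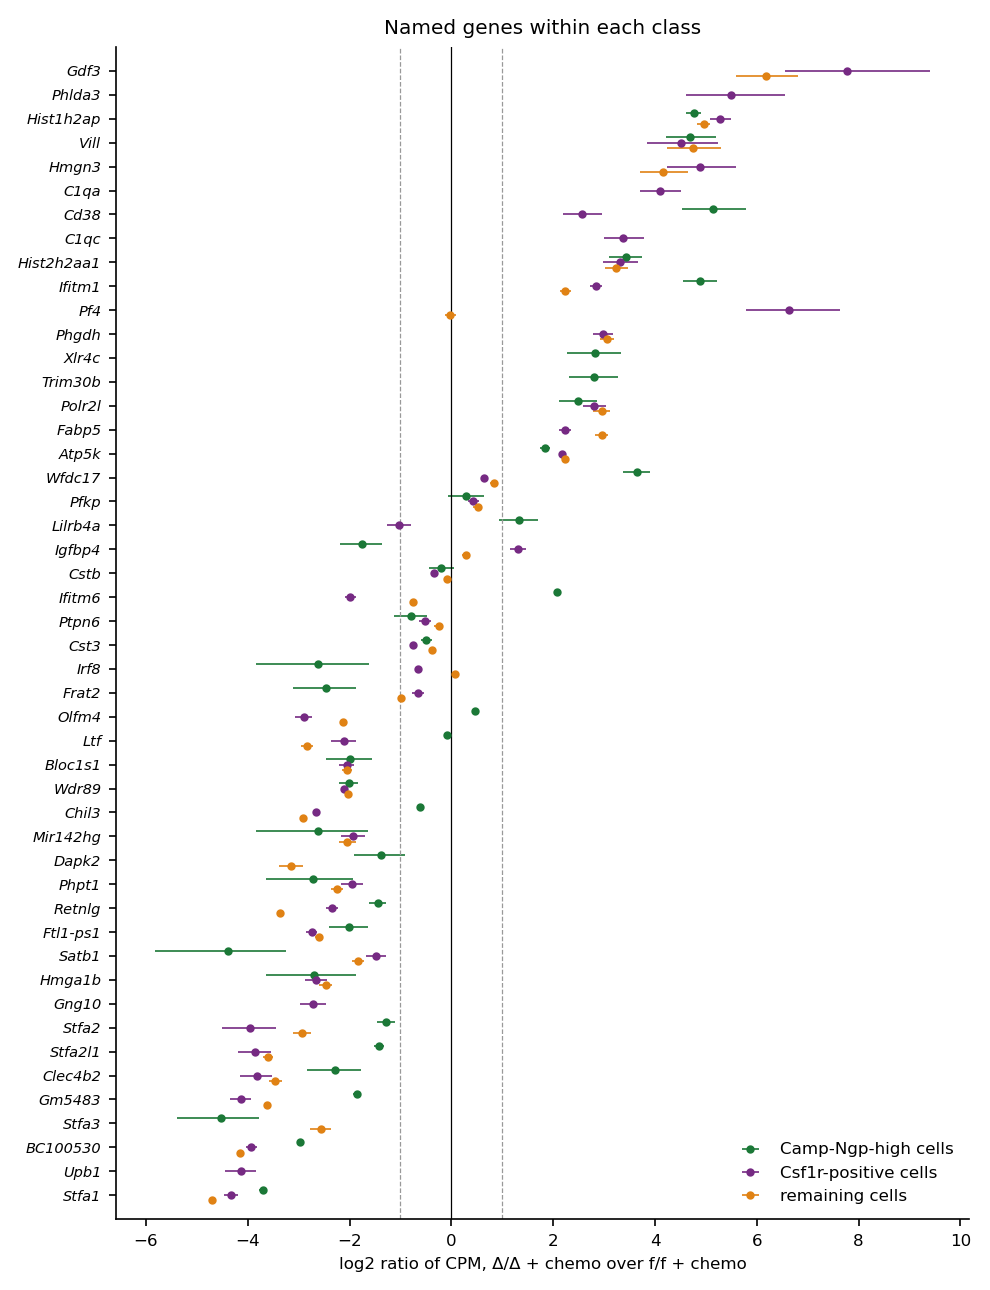
Log2 ratio of CPM (library labelled Δ/Δ + chemo over library labelled f/f + chemo) of the named genes, 1 point per class where the gene reached 20 CPM in either library, with exact 95% intervals that cover counting error only and dashed lines at 2-fold. Gdf3 reaches 7.78 in Csf1r-positive cells, Hist1h2ap lies between 4.76 and 5.29 in the 3 classes, and Stfa1 between -4.69 and -3.70.

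In Csf1r-positive cells the named gene with the highest ratio was Gdf3, a growth factor of the TGF-β family known from embryonic stem cells and macrophages. Gdf3 was at 58.4 CPM (1517 UMIs) in the library labelled Δ/Δ + chemo and at 0.266 CPM (5 UMIs) in the library labelled f/f + chemo, a log2 ratio of 7.78 (6.56 to 9.41). The PBS libraries lay between them, at 10.4 CPM in that labelled Δ/Δ and 4.33 CPM in that labelled f/f. After thinning, 16.2% against 0.0493% of Csf1r-positive cells held a Gdf3 UMI (36.4% against 0.186% before thinning). T cell barcodes of the library labelled Δ/Δ + chemo gave 6.32%, below the share in Csf1r-positive cells, and those of the library labelled f/f + chemo gave 0 of 20 cells, which allows up to 16.8%. Phlda3, a p53 target that restrains AKT, was at 23.95 against 0.531 CPM, and at 21.4 and 0.765 CPM in the PBS libraries labelled Δ/Δ and f/f. Of 13 p53 targets 4 were higher and none lower, with Cdkn1a at 178 against 70.3 CPM (1.34). Hmgn3, a nucleosome-binding protein, was at 31.3 against 1.06 CPM (4.88).

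Pf4 (platelet factor 4) and the complement genes C1qa and C1qc were also high in Csf1r-positive cells, in few cells. Pf4 was at 58.0 CPM (1505 UMIs) against 0.584 CPM (11 UMIs), a log2 ratio of 6.63, and 1.75% against 0.247% of thinned cells held a UMI. C1qa was at 50.02 against 2.92 CPM (4.10), seen in 2.67% against 0.296% of thinned cells, and C1qc at 32.5 against 3.13 CPM (3.37). The 6 megakaryocyte markers, which include Pf4, summed to 75.8 against 3.45 CPM in these cells, and 22 against 1 cells held 3 or more UMIs of them. The 9 macrophage markers, which include C1qa and C1qc, summed to 205 against 24.2 CPM, in 84 against 26 such cells. Of the macrophage markers, none was at 0 in the library labelled Δ/Δ + chemo and Cd5l was at 0 in the library labelled f/f + chemo. The part of these cells in the values of other genes was not tested. In remaining cells Pf4 was at 32.9 against 33.4 CPM, a log2 ratio of -0.02.

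Serine synthesis and ribosome biogenesis genes stood higher in both Csf1r-positive and remaining cells of the library labelled Δ/Δ + chemo. Phgdh, the first enzyme of serine synthesis from glucose, was at 95.6 against 12.2 CPM in Csf1r-positive cells (2.97, 2.78 to 3.18) and at 114 against 13.7 CPM in remaining cells (3.05, 2.92 to 3.19). Psat1, the next enzyme, was at 87.7 against 28.4 CPM and at 85.3 against 27.6 CPM, a log2 ratio of 1.63 in each. The mitochondrial serine hydroxymethyltransferase gene Shmt2 was at 77.0 against 28.4 CPM and at 72.7 against 26.7 CPM. Of 17 serine and one-carbon genes compared, 6 were higher in Csf1r-positive cells (median 0.73) and 5 in remaining cells (median 0.72), with none lower, while in Camp-Ngp-high cells none of 12 was 2-fold apart (median -0.13). Phgdh was seen in 16.6% against 2.07% of thinned Csf1r-positive cells and in 22.4% against 2.60% of thinned remaining cells. T cell barcodes, which can express Phgdh themselves, gave 24 of 95 against 6 of 20 cells.

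Of 28 ribosome biogenesis and MYC activity genes compared in Csf1r-positive cells, 14 were 2-fold higher and none lower, with a median of 1.0. In remaining cells 15 of 29 were higher and none lower (median 1.01), and in Camp-Ngp-high cells 1 of 22 was higher (median 0.28). At 1.5-fold the higher members were 25 of 28 (12.4% of all genes compared), 26 of 29 (11.7%) and 6 of 22 (7.12%). Wdr43, a nucleolar protein of rRNA transcription, was at 163 against 47.0 CPM in Csf1r-positive cells and at 182 against 49.8 CPM in remaining cells, where its log2 ratio was 1.87. The spermidine synthase gene Srm was at 175 against 61.8 CPM and at 210 against 70.9 CPM, and Cad, the first enzyme of pyrimidine synthesis, at 38.0 against 12.9 CPM and 37.4 against 13.6 CPM. Myc itself was at 71.9 against 29.7 CPM in Csf1r-positive cells (1.28) and at 78.8 against 40.8 CPM in remaining cells (0.95). The PBS library labelled Δ/Δ held Srm at 145 and 154 CPM in these classes, and that labelled f/f held it at 61.4 and 81.8 CPM. Fabp5, a fatty acid carrier, was at 177 against 37.8 CPM in Csf1r-positive cells (2.23) and at 127 against 16.4 CPM in remaining cells (2.95). Proliferation genes differed less. Of all genes compared, 12.4% were 1.5-fold higher in Csf1r-positive cells, and in remaining cells 11.7% were higher and 14.7% lower. The mitosis counts at 1.5-fold given next are near these shares. Of 32 S phase genes none was 2-fold apart in these classes, with 10 higher at 1.5-fold in Csf1r-positive cells (median 0.46) and 9 in remaining cells (median 0.35). Of 30 mitosis genes none was 2-fold apart in Csf1r-positive cells, where 4 were higher at 1.5-fold (median 0.30), and in remaining cells 6 were lower at 1.5-fold and none higher (median -0.23), with Cenpf, a kinetochore protein, at 98.4 against 210 CPM (-1.09). The division marker Mki67 was seen in 52.5% against 31.3% of thinned Csf1r-positive cells and in 57.8% against 44.3% of thinned remaining cells, and in 67.7% against 56.5% of thinned Camp-Ngp-high cells. T cell barcodes stood the other way for Mki67, with 27 of 95 against 10 of 20 cells. The interval of the latter, 27.2% to 72.8%, holds the class shares of the library labelled f/f + chemo.

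Secondary granule genes stood low in Csf1r-positive and remaining cells of the library labelled Δ/Δ + chemo, and later neutrophil genes were mixed. Of 12 secondary granule genes compared in Csf1r-positive cells, 7 were lower and none higher (median -1.29), and of 14 in remaining cells 8 were lower and none higher (median -1.26). Of the later neutrophil genes 4 of 14 were lower and 1 higher in Csf1r-positive cells (median -0.48), and 5 of 15 lower and 1 higher in remaining cells (median -0.58). The higher one was Wfdc21, at 93.8 against 41.1 CPM (1.19) and at 315 against 119 CPM (1.41). Chil3 was at 76.9 against 483 CPM in Csf1r-positive cells (-2.65) and at 197 against 1478 CPM in remaining cells (-2.91). Ltf was at 7.43 against 32.2 CPM (-2.11) and at 9.70 against 69.4 CPM (-2.84), and Olfm4 at 13.9 against 104 CPM (-2.90) and at 67.5 against 293 CPM (-2.12). Remaining cells at 1% to 3% of Camp and Ngp, at least 3.79% against 23.9% of the class, enter these values. In remaining cells under 1%, Ltf was at 4.02 against 9.14 CPM and Chil3 at 136 against 1111 CPM. Lyz2, made by monocytes as well, was at 894 against 3418 CPM in Csf1r-positive cells (-1.93) and at 177 against 1098 CPM in remaining cells (-2.63).

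Neutrophil RNA outside neutrophils moved with this. In T cell barcodes, which should lack Camp and Ngp, these 2 genes summed to 68.3 CPM in the library labelled Δ/Δ + chemo and to 2187 CPM in the library labelled f/f + chemo. They summed to 253 against 1876 CPM in Csf1r-positive cells and to 1147 against 5045 CPM in remaining cells. Chil3 per 1000 Camp and Ngp UMIs was at 304 against 257 in Csf1r-positive cells, 172 against 293 in remaining cells and 164 against 297 in T cell barcodes, where its level was 11.2 against 649 CPM. In the library labelled f/f + chemo the summed Chil3 level of T cell barcodes was thus above that of Csf1r-positive cells, which cannot be told from background there. These T cell sums rest on 35 barcodes, with 418 Camp and Ngp UMIs and 124 Chil3 UMIs. Whether few or many of these barcodes carry them was not tested. In Csf1r-positive cells of that library the median share of UMIs from Camp and Ngp was 0.0194%, with an upper quartile of 0.0409%. Per 1000 Camp and Ngp UMIs, Stfa1 was at 9.22 against 88.8 in Camp-Ngp-high cells, 76.8 against 208 in Csf1r-positive cells and 43.0 against 253 in remaining cells. Camp and Ngp set the classes, so these ratios are a description only. In T cell barcodes it was at 49.2 against 74.2, from 3 and 31 UMIs. The Lyz2 level of T cell barcodes was 57.1 against 62.8 CPM, far below that of Csf1r-positive cells in either library. The part of neutrophil RNA in the values of Csf1r-positive and remaining cells was not tested beyond these ratios.

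Other lower genes of Csf1r-positive cells were enzymes, receptors and regulators of myeloid cells. Upb1, an enzyme of pyrimidine breakdown, was at 3.74 against 65.8 CPM, a log2 ratio of -4.14 (-4.45 to -3.84), and at 6.99 and 25.2 CPM in the PBS libraries labelled Δ/Δ and f/f. Clec4b2 was at 3.50 against 49.8 CPM (-3.83) and Gng10, a G protein subunit, at 6.05 against 39.6 CPM (-2.71). Of 23 myeloid transcription factors 6 were lower and none higher (median -0.66), with Id1 at 11.4 against 36.6 CPM (-1.68), Irf5, a factor of inflammatory cytokine genes, at 34.0 against 97.7 CPM (-1.52), and Cebpd at 129 against 332 CPM (-1.37). The chemokine gene Ccl3 was at 135 against 552 CPM (-2.03) and Ccl4 at 49.6 against 127 CPM (-1.36), and the stress factor Atf3 was at 18.6 against 69.8 CPM (-1.91). Of 18 monocyte genes 1 was 2-fold lower, Adgre1 (F4/80), at 23.9 against 61.6 CPM (-1.37), and none was higher, with a median of -0.50. That count is near the share of all genes compared, of which 4.07% were lower in this class. Ly6c2, of classical monocytes, was at 1365 against 1374 CPM.

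Some inhibitory receptors that recruit Shp-1 were lower in Csf1r-positive and remaining cells. Of 15 compared in Csf1r-positive cells 4 were lower and none higher (median -0.51), and of 14 in remaining cells 4 were lower and none higher (median -0.81). In Camp-Ngp-high cells 1 of 16 was higher and none lower (median 0.05). The lectin receptor gene Clec4a2 was at 46.9 against 152 CPM in Csf1r-positive cells (-1.70) and at 84.6 against 272 CPM in remaining cells (-1.69). Cd300a was at 39.9 against 95.6 CPM (-1.26), and Cd33 at 23.7 against 50.6 CPM (-1.09), in Csf1r-positive cells, and Ceacam1 at 30.4 against 69.1 CPM (-1.19) in remaining cells. The PBS libraries stood the same way for Clec4a2 in remaining cells, at 81.9 CPM in that labelled Δ/Δ and 284 CPM in that labelled f/f. Of the cytokine receptors, Csf2ra was lower in Csf1r-positive cells at 169 against 369 CPM (-1.12) and Il6ra at 55.8 against 139 CPM (-1.32).

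Remaining cells of the library labelled Δ/Δ + chemo held Gdf3 at 50.8 CPM (3818 UMIs) against 0.705 CPM (24 UMIs) in the library labelled f/f + chemo, a log2 ratio of 6.17 (5.60 to 6.81). After thinning 13.6% against 0.179% of cells held a Gdf3 UMI (33.6% against 0.324% before thinning). Hmgn3 was at 21.0 against 1.18 CPM (4.16). The lowest named genes there, beside the stefins, were Clec4b2 at 8.07 against 88.7 CPM (-3.46), Retnlg at 41.6 against 428 CPM (-3.36) and the kinase gene Dapk2, of maturing granulocytes, at 2.67 against 23.7 CPM (-3.15). Satb1 was at 13.4 against 47.8 CPM (-1.84), but its log2 ratio was -0.16 with the mean over cells of each cell's CPM. Primary granule genes of progenitors stood near level or higher, with 2 of 10 higher and none lower (median 0.20). Mpo (myeloperoxidase) was at 5110 against 2332 CPM (1.13), while cathepsin G (Ctsg) was at 4285 against 2148 CPM (1.0, just under the limit). Among leukaemia genes, Bcl2, which blocks cell death, was at 49.9 against 21.4 CPM (1.22), and the stem cell factor Sox4 at 55.2 against 11.4 CPM (2.28). The lists as a whole stood near level in remaining cells. Their median log2 ratios were -0.27 for MLL and HOX leukaemia genes, -0.12 for stem and progenitor genes and 0.26 for the BCL2 family. Kmt2a, the gene whose human counterpart MLL gives the 5′ part of the fusion, was at 215 against 592 CPM (-1.46).

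Some MHC class II genes were higher in Csf1r-positive and remaining cells. In Camp-Ngp-high cells 1 gene of the list was compared, too few to describe it there. Of 7 compared in remaining cells 4 were higher and none lower (median 1.77), and in Csf1r-positive cells 4 of 7 were higher (median 1.14) and 2 were lower at 1.5-fold. Cd74, the invariant chain, was at 200.2 against 58.8 CPM in remaining cells and H2-Eb1 at 49.2 against 10.0 CPM (2.30). In Csf1r-positive cells Cd74 was at 289 against 131 CPM, with 233 and 263 CPM in the PBS libraries labelled Δ/Δ and f/f, so there the library labelled f/f + chemo was the low one. The 12 conventional dendritic cell markers, which hold 3 of these genes, summed to 227 against 53.6 CPM in remaining cells and to 334 against 132 CPM in Csf1r-positive cells. B cells make MHC class II as well, and 407 against 60 kept cells passed the B cell rule. How much of the difference comes from these cells was not tested. Class I genes differed less, with 2 of 17 higher in remaining cells (median 0.35) and 3 of 19 in Csf1r-positive cells (median 0.39), where H2-K1 was at 944 against 446 CPM (1.08).

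**Figure D5:**
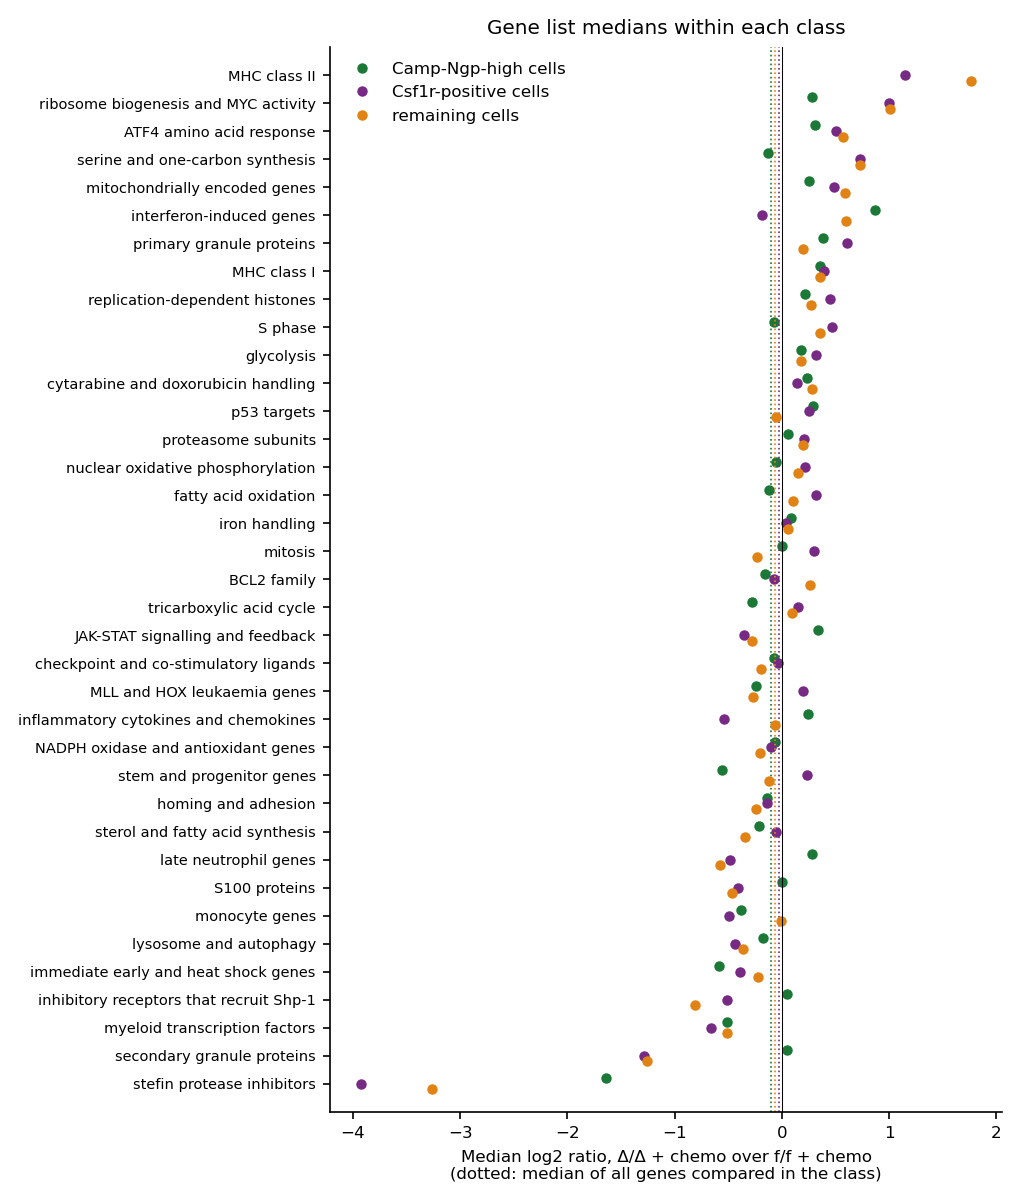
Median log2 ratio (library labelled Δ/Δ + chemo over library labelled f/f + chemo) of each gene list with at least 3 members at 20 CPM or more, 1 marker per class, with dotted lines for the median of all genes compared. Stefins lie lowest in each class at -1.64, -3.93 and -3.26, and ribosome biogenesis and MYC activity lie near 1.0 in Csf1r-positive and remaining cells.

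Csf1r-positive and remaining cells shared many genes. Of those 2-fold higher, 168 were common to both, 65.4% of the Csf1r-positive and 73.0% of the remaining list, and of those lower 163, which are 64.4% and 57.2%. Of all genes compared, 4.14% and 3.77% were higher in these classes and 4.07% and 4.67% lower. Both classes come from the same 2 libraries, and only the detection of Csf1r, which depends on depth, parts them. The overlap is thus not one of independent comparisons. Over all 3 classes, 5049 genes were compared, and 46 were 2-fold higher and 62 lower in each class. The 6 higher genes with the largest ratio in their least changed class were of several kinds. Hist1h2ap had log2 ratios of 4.76, 5.29 and 4.96 in the 3 classes, and was at 506 against 16.3 CPM in remaining cells. Hist2h2aa1 was at 47.2 against 5.02 CPM there, Vill, a villin-like actin binding protein, at 25.2 against 0.940 CPM, and the RNA polymerase subunit gene Polr2l at 74.4 against 9.61 CPM. Ifitm1 was at 97.3 against 20.7 CPM in remaining cells (2.24), and Atp5k, a subunit of ATP synthase, at 630 against 134 CPM (2.23). The histone genes have near-identical copies that may share their reads, so their separate values are uncertain.

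The 6 lower genes chosen the same way were Stfa1 and Clec4b2, given above, and Hmga1b, Wdr89, Ftl1-ps1 and Bloc1s1. Code-named models, ribosomal protein and haemoglobin genes were left out of this choice, and Hmga1b and Ftl1-ps1 are copies of other genes. Hmga1b, a copy of Hmga1, had log2 ratios of -2.69, -2.66 and -2.46, while Hmga1 itself stood the other way, at 48.5 against 12.5 CPM in remaining cells. Ftl1-ps1, a copy of the ferritin gene Ftl1, was at 24.7 against 151 CPM in remaining cells, while Ftl1 was at 2115 against 2298 CPM. Reads of such pairs may be split between them, so these values are uncertain. Wdr89 was at 154 against 627 CPM in remaining cells (-2.02), and Bloc1s1, of lysosome-related organelles, at 19.5 against 80.8 CPM (-2.05). Phpt1, a protein histidine phosphatase, and Mir142hg, the host transcript of the blood microRNA miR-142, were also lower in each class, at 10.3 against 48.8 CPM (-2.24) and at 6.17 against 25.4 CPM (-2.04) in remaining cells. Without barcodes of 3 or more UMIs from markers of other cell types, the log2 ratio of Mir142hg there was -0.81. That setting kept 1171 of 6778 and 1465 of 4316 remaining cells. NK cell markers alone reached 3 UMIs in 3116 and 1314 remaining cells, with 1 of 7 markers at 20 CPM or more. The setting thus took out most of the class, and not other cell types alone.

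Part of these shared differences was also seen in T cell barcodes, which are themselves Csf1r-positive or remaining cells. T cell barcodes also held Mpo, a gene of myeloid progenitors, in 42 of 95 against 4 of 20 thinned cells. Expression by T cells thus cannot be told from background here. Of the 46 genes higher in each class, 44 were at 20 CPM or more in T cell barcodes, and 28 of these were 2-fold higher there too and none lower, against 209 higher and 362 lower of all 6729 genes. Of the 62 lower genes 45 were measured, with 23 lower and 1 higher. In T cell barcodes Hist1h2ap had a log2 ratio of 3.50, Wdr89 of -2.10 and Bloc1s1 of -2.05. For Hist1h2ap the PBS libraries lay between, at 45.8 CPM in that labelled Δ/Δ and 90.0 CPM in that labelled f/f in remaining cells. For Vill they stood at 24.4 and 22.7 CPM, near the library labelled Δ/Δ + chemo.

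For most 2-fold genes of Csf1r-positive and remaining cells, the PBS library of each label was nearer the chemotherapy library of that label. This held for 174 of 257 higher and 176 of 253 lower genes of Csf1r-positive cells, and for 159 of 230 higher and 162 of 285 lower genes of remaining cells. In Camp-Ngp-high cells it held for 59 of 130 higher and 51 of 171 lower genes, and both PBS libraries were nearer the library labelled f/f + chemo for 99 of the 171. No test was made of these counts. They cover only genes chosen by the chemotherapy pair, and the share over all genes compared was not computed. Ifitm6, Igfbp4 and Lilrb4a were 2-fold higher in 1 class and 2-fold lower in another.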

How the data were processed

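The deposited matrices hold whole-number UMI counts per gene and barcode, with no normalisation, made by the authors with Cell Ranger 3.0.2 against mm10, per the submitters' processing notes, from libraries of a droplet 3′ kit (Chromium v2), per the labels' protocols. The authors' files list 31053 features and barcodes of 500 UMIs or more. From these counts, kept cells were summed per class and scaled to CPM with Python 3.11.15, numpy 2.4.6, scipy 1.17.1 and pandas 2.3.3. Log2 ratios carry exact Clopper-Pearson intervals conditional on the sum of both counts, levels exact Poisson intervals and shares exact binomial intervals, all at 95% and for counting error only, since depth sets only that part of the error. A count of 0 was set to 3 counts for a ratio. The 71 identifiers that share a symbol with another were kept apart. Cells were thinned to 3000 UMIs with a fixed seed where shares were compared across depths. Cells under 3000 UMIs were left out there, 90 of 185 against 15 of 35 T cell barcodes among them. The ratios and intervals were tested on simulated data.

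With 1 library a group no test, p-value or standard error was computed. Classes follow a stated rule, and the 37 gene lists, the 17 marker lists and the classes themselves were chosen with earlier results of these data known. Named genes are Ptpn6, Pfkp, the 8 highest and 8 lowest ratios of each class, the 6 higher and 6 lower genes shared by all classes, genes of opposite direction, up to 4 members per list and all stefins. Mitochondrial, ribosomal, haemoglobin, immunoglobulin (Jchain among them), T cell receptor and sex-linked genes and code-named models were counted but not named by rank. Hmga1 and Ftl1, set beside their copies, and any other listed gene outside these rules, such as Ly6c2 or Myc, were chosen after their values were seen.

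Doublets were not removed from the values reported. The automatic threshold of Scrublet in scanpy 1.11.5 marked 0 of 9446 cells of the library labelled Δ/Δ + chemo, so it had not worked there, and 546 of 9750 (5.60%) of the library labelled f/f + chemo. Removing these, or the highest 6% of scores in each library (chosen after seeing the data), were alternatives. Promoter windows came from RefSeq and were aligned with biopython 1.88, and figures were drawn with matplotlib 3.10.9.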

Additional observations from a re-analysis of the deposited data

Results flagged for a closer look

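Of the genes compared, 3 were at least 2-fold higher in 1 class and at least 2-fold lower in another between the libraries labelled Δ/Δ + chemo and f/f + chemo. The difference between classes was not tested, since each group held 1 library.

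Ifitm6, an interferon-induced transmembrane protein of myeloid cells, was at 1772 against 421 CPM in Camp-Ngp-high cells, a log2 ratio of 2.07, and at 38.1 against 151 CPM in Csf1r-positive cells, a log2 ratio of -1.98. In remaining cells it was at 60.6 against 102 CPM. The PBS libraries stood the same way in Camp-Ngp-high cells, at 1024 CPM with the Δ/Δ label and 572 CPM with the f/f label. Ifitm6 in remaining cells had a log2 ratio of -0.76 and of up to 0.42 under other settings.

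Igfbp4, a secreted protein that binds insulin-like growth factors, was at 58.1 against 23.5 CPM in Csf1r-positive cells, a log2 ratio of 1.30, and at 21.0 against 71.2 CPM in Camp-Ngp-high cells, a log2 ratio of -1.76.

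Lilrb4a, an inhibitory receptor with motifs that bind Shp-1, was at 29.6 against 11.8 CPM in Camp-Ngp-high cells, a log2 ratio of 1.33, and at 9.86 against 20.1 CPM in Csf1r-positive cells, a log2 ratio of -1.03. Over the other settings its ratio ran from 0.76 to 1.51 in Camp-Ngp-high cells and from -1.15 to -0.57 in Csf1r-positive cells, so both calls were lost under some setting.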

How the results depend on the processing

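No paired analysis was possible because each group held 1 library. All 91 called values of named genes kept their sign under every setting tried, and 8 were under 2-fold in some setting. These were Irf8 (to -0.89, with the class set at 1% or without Scrublet doublets), Retnlg (to -0.95) and Lilrb4a (to 0.76) in Camp-Ngp-high cells, Satb1 (to -0.64) and Lilrb4a (to -0.57) in Csf1r-positive cells, and Mir142hg (to -0.81), Satb1 (to -0.16) and Stfa3 (to -0.62) in remaining cells. The 18 list medians of 1.5-fold or more also kept their sign, but in some setting those of the stress genes in Camp-Ngp-high cells (to -0.47), the primary granule genes (to 0.42) and myeloid factors (to -0.44) in Csf1r-positive cells, and the interferon-induced (to 0.38), mitochondrially encoded (to 0.55) and serine genes (to 0.52) in remaining cells were under 1.5-fold. Some values under 2-fold turned round, among them Ptpn6 in remaining cells (-0.35 to 0.24), Ltf in Camp-Ngp-high cells (-0.80 to 0.41) and Pf4 in remaining cells (-0.23 to 3.83). The cause was not tested.

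Counts of genes depend on the lowest level compared. With genes from 5 CPM, 282 were higher and 469 lower in Camp-Ngp-high cells, 522 and 411 in Csf1r-positive cells and 427 and 494 in remaining cells. From 50 CPM, they were 72 and 74, 134 and 155, and 131 and 153. In Camp-Ngp-high cells 265 were lower with the class set at 5% and 274 after thinning. In remaining cells 416 were higher without barcodes of 3 or more other-type marker UMIs, which left 1171 and 1465 cells, and 239 higher and 293 lower without T and B cell barcodes, a setting chosen after seeing the data, as was removing the highest 6% of doublet scores.

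Shares, library labelled Δ/Δ + chemo first, moved with the class rule and the filters. With Camp and Ngp at 1%, Camp-Ngp-high cells were 5.579% and 45.46%, Csf1r-positive cells of the library labelled f/f + chemo 20.89% and remaining cells 69% and 33.65%. At 5%, they were 1.302% and 24.88%, 23.01%, and 73.12% and 52.11%. With Csf1r at 2 UMIs, Csf1r-positive cells were 10% and 10.92% and remaining cells 87.28% and 55.44%. With 1000 genes and 5% mitochondrial UMIs, Camp-Ngp-high cells were 3.223% and 36.58%, and in the library labelled f/f + chemo Csf1r-positive cells 23.45% and remaining cells 39.98%. With 200 genes and 20%, Csf1r-positive cells of the library labelled Δ/Δ + chemo were 24.53% and remaining cells 72.88% and 45.44%. After thinning the classes were 3.252% and 36.65%, 11.11% and 13.4%, and 85.64% and 49.95%.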

Other observations

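Markers of other cell types differed between the libraries labelled Δ/Δ + chemo and f/f + chemo. Erythroid markers summed to 45.2 against 328 CPM in Csf1r-positive cells and to 96.2 against 489 CPM in remaining cells. Outside the T or B cell gate, 3 and 6 remaining cells gave at least 5% of their UMIs to haemoglobin. The globin gene Hbb-bs, also not named by rank, was at 1.23 against 61.3 CPM in Camp-Ngp-high cells. The plasma cell gene Jchain, counted but not named by rank, was at 59.5 against 1.33 CPM in Csf1r-positive cells (log2 ratio 5.48), and at 3.88 and 53.6 CPM in the PBS libraries labelled Δ/Δ and f/f. Stroma markers summed to 53.2 against 20.4 CPM in remaining cells.

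Eno1, the glycolytic enolase, was at 324 against 106 CPM in Camp-Ngp-high cells (log2 ratio 1.61), at 320 against 60.2 CPM in Csf1r-positive cells (2.41) and at 345 against 90.9 CPM in remaining cells (1.92), while the glycolysis list had medians of 0.17, 0.32 and 0.18. Of 76 nuclear oxidative phosphorylation genes 2 were 2-fold higher in each class, Atp5k among them. That is near or below the share of all genes compared, which was 2.42%, 4.14% and 3.77% in the 3 classes. Of 13 mitochondrially encoded genes 5, 4 and 4 were higher. The complex I gene mt-Nd4l was at 280 against 54.1 CPM in remaining cells (2.37), and at 163 and 156 CPM in the PBS libraries labelled Δ/Δ and f/f, which lay between. Metallothionein 2 (Mt2), which binds metals, was at 31.1 against 4.57 CPM in Csf1r-positive cells (2.77) and at 59.0 against 16.1 CPM in remaining cells (1.87).

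Among genes that handle the drugs, the efflux pump gene Abcb1b, which carries doxorubicin out of cells, was at 34.5 against 7.44 CPM in Csf1r-positive cells (2.21), and at 32.0 and 19.1 CPM in the PBS libraries labelled Δ/Δ and f/f. The nucleotidase gene Nt5c3b was at 24.3 against 7.06 CPM there (1.78) and at 30.3 against 6.73 CPM in remaining cells (2.17). Of 15 genes of this list compared in Csf1r-positive cells these 2 were 2-fold higher and none was lower, with a median of 0.14. The fatty acid synthase gene Fasn was higher in remaining cells, at 49.1 against 20.5 CPM (1.26). The antioxidant gene Prdx5 was at 479 against 1305 CPM in Csf1r-positive cells (-1.45) and at 742 against 1887 CPM in remaining cells (-1.35). The adhesion gene Vcam1, a macrophage marker, was at 20.3 against 4.78 CPM in Csf1r-positive cells (2.09).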
